A study of Mus musculus with 12 samples.

Results

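The expression of 36 pan-neuronal and presynaptic genes was examined in dorsal root ganglia, which hold the cell bodies of sensory neurons next to the spinal cord, of mice that had lost Prdm12 as adults. The genes were taken by symbol from a given list: 15 mark neurons in general and 21 act in the release or refilling of synaptic vesicles. All 36 matched 1 of the 55416 gene rows in the deposited tables, and all 36 were among the 16384 genes with enough counts to be tested. Poly(A) RNA of the ganglia of C57Bl6 adults was sequenced in 12 libraries, 6 labelled iKO (inducible knockout) and 6 labelled control. The 6 iKO libraries came from Rosa26CreERT2; Prdm12 Fl/Fl animals, in which tamoxifen releases a Cre recombinase driven from the ubiquitous Rosa26 locus, so deletion was not limited to neurons. The ganglia were taken 1 month after tamoxifen, and no separate interval is stated for corn oil. Corn-oil controls 5 and 6 had the iKO genotype, with Cre and 2 floxed alleles, and received the oil without tamoxifen. Controls 1 to 4 received tamoxifen: control 1 had Cre and 1 floxed allele, controls 2 and 3 had 1 floxed allele and no Cre, and control 4 had Cre and 0 floxed alleles. Libraries iKO 4 to 6 and controls 3 to 6 were male, and iKO 1 to 3 and controls 1 and 2 were female. Agent, genotype and sex mix therefore cannot be told apart within the controls.

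Sensory neurons of the ganglion have a cell body there and send an axon to the skin or viscera and a branch into the spinal cord, where they release glutamate. Vesicles are filled by vesicular glutamate transporters, held at the active zone by scaffold proteins such as the RIMs, and fused with the membrane by SNARE proteins (a vesicle VAMP with the membrane proteins syntaxin and SNAP-25) when synaptotagmin binds calcium. The transcripts for these proteins are made in the cell body, so they are measured in ganglion RNA together with transcripts of neuronal cytoskeleton and RNA-binding proteins, and in bulk tissue fewer neurons and less RNA per neuron cannot be told apart.

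Total counts ran from 13943784 to 20377766 per library. Prdm12 itself averaged 23.3 ± 2.51 CPM (counts per 1000000 counts of the library, after scaling for composition) in iKO libraries and 117 ± 29.4 CPM in controls (SD, n = 6 each, exact 2-sided permutation test over 924 relabellings, p = 0.00216, the smallest they can give), and the groups did not overlap. One library stood apart. Library iKO 1 had the highest level of all 12 libraries for 12 of 12 endothelial, 12 of 12 fibroblast and 11 of 12 macrophage markers and for 8 of 12 markers of myelinating Schwann cells. The summed level of the 12 macrophage markers was 754 CPM in iKO 1, 252 to 285 CPM in iKO 2 to 6 and 276 to 440 CPM in controls. The 12 fibroblast markers summed to 7887 CPM in iKO 1, 2941 to 3306 CPM in iKO 2 to 6 and 3298 to 4309 CPM in controls. None of the markers in these 4 lists, or in the lists for nociceptors and large-diameter neurons, was at 0 in any library. Of spinal cord, Mnx1, Chat, Olig2 and Slc32a1 were at 0 in at least 1 library. The 9 skeletal muscle markers summed to 19.6 to 102 CPM in 11 libraries and to 455.3 CPM in control 6, a corn-oil control, which therefore also stood apart. Results that rest on iKO 1, and those against corn-oil controls that rest on control 6, are given with and without it.

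The 36 genes covered a wide range of levels. Per kilobase of exon, the most abundant were Tubb3, the neuronal β-tubulin, at 1301 CPM per kb over the 12 libraries, and Uchl1, a ubiquitin hydrolase long used as a neuronal marker, at 937 CPM per kb. Stmn3, a microtubule-destabilising stathmin, followed at 842 CPM per kb and Prph, the intermediate filament peripherin of peripheral neurons, at 813 CPM per kb. Among vesicle genes Cplx1, a complexin that clamps and assists SNARE fusion, led at 319 CPM per kb, ahead of Snap25 at 215 CPM per kb. The lowest levels were those of the RIM scaffold genes Rims2 (6.60 CPM per kb) and Rims1 (11.9 CPM per kb) and of the neurofilament α-internexin gene Ina (9.92 CPM per kb). The genes also differed in how much they varied between libraries. Stmn3 was the steadiest, with 940.1 to 989.7 CPM in iKO libraries, 909.6 to 989 CPM in controls and a coefficient of variation of 2.61% over all 12. Slc17a7, the transporter VGLUT1, varied most (26.9%), followed by the calcium sensor gene Syt2 (22.8%) and the vesicle SNARE gene Vamp1 (17.7%).

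**Figure D1:**
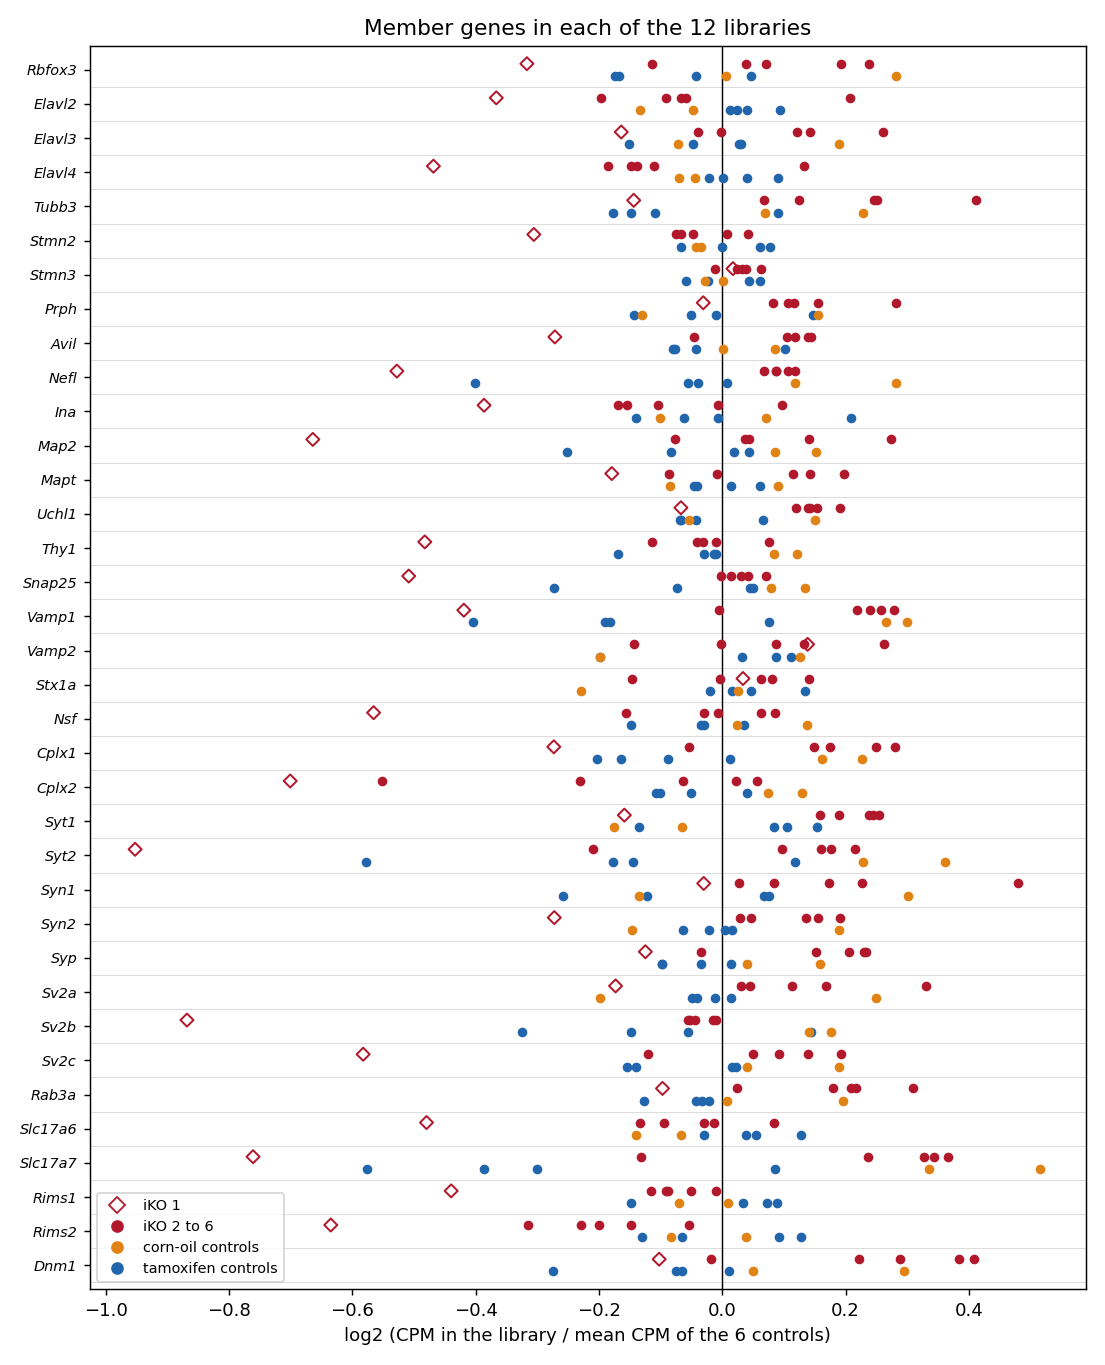
Level of each of the 36 genes (rows) in each library as the log2 ratio of its CPM to the mean CPM of the 6 controls (horizontal axis), with iKO libraries drawn above controls in every row and coloured by kind of library. The open diamond, iKO 1, is the lowest iKO library for 33 of the 36 genes, and the groups overlap in every row.

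For iKO against control, 0 of the 36 genes passed the threshold of 0.05 in the edgeR quasi-likelihood (QL) test, with p-values adjusted over all genes after Benjamini and Hochberg (BH), against 155 of 16384 genes tested (0.946%). At an unadjusted p under 0.05 there was 1, Rims2, against 9.52% of all genes, and DESeq2 and limma-voom also called 0 of the 36, with 3 and 1 at an unadjusted p under 0.05. The groups overlapped for every one of the 36, whereas they did not for 253 of all genes (1.54%). Estimates were positive for 24 and negative for 12, with a median log2 difference of 0.04 (0.01 to 0.09 when 1 library was left out, lowest without iKO 2 and highest without iKO 1) and a range of -0.22 to 0.21, beside 50% positive and a median of 1.57e-05 over all genes. For 35 of the 36 the 95% interval lay within 1.5-fold of no change in either direction, as it did for 13049 of the 16384 genes tested. The exception was Slc17a7, with an interval of -0.36 to 0.67. Summed over the list, the level was 22440 ± 2309 CPM in iKO libraries and 21880 ± 1373 CPM in controls (SD, n = 6 each), a difference below the spread within either group.

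The 4 neuronal RNA-binding proteins are the NeuN antigen Rbfox3, a splicing regulator, and Elavl2, Elavl3 and Elavl4, the Hu proteins that bind and stabilise neuronal messages. Their log2 differences ran from -0.13 to 0.06. Elavl4 had the smallest p of the 4. Its level was 246, 308 and 373 CPM in the lowest, median and highest iKO library, against 324, 338 and 362 CPM in controls. Of the iKO libraries 1 lay above the control median, and the log2 difference was -0.13 ± 0.076 (SE, edgeR, BH-adjusted p = 0.626).

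Among the 9 cytoskeletal genes, which also include the stathmin Stmn2, the actin-binding advillin gene Avil, the neurofilament genes Nefl and Ina and the microtubule-associated genes Map2 and Mapt, 7 estimates were positive and 2 negative, from -0.11 to 0.18. Tubb3 had the largest. It stood at 2071, 2602 and 3042 CPM in the lowest, median and highest iKO library, against 2023, 2260 and 2679 CPM in controls. Of the iKO libraries 5 lay above the control median, but the ranges overlapped widely (log2 difference 0.18 ± 0.10, SE, edgeR, BH-adjusted p = 0.598). Nefl lies on the strand opposite to Nefm and shares 32.8% of its exon bases with that gene, and the libraries do not record strand, so its count may hold reads of both. Peripherin had 1524, 1682 and 1893 CPM in iKO libraries and 1410.3, 1526 and 1734 CPM in controls, a log2 difference of 0.13 ± 0.079 (SE). The steady Stmn3 differed by 0.03 ± 0.054.

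The remaining pan-neuronal genes are Uchl1 and the surface glycoprotein gene Thy1, with log2 differences of 0.13 and -0.07. Uchl1 had 1401, 1618 and 1675 CPM in the lowest, median and highest iKO library, against 1400.1, 1419.7 and 1628 CPM in controls. Libraries iKO 2 and iKO 3 lay above every control, and iKO 4, iKO 5 and iKO 6 lay above every control except control 5. The group difference did not pass the test (edgeR, BH-adjusted p = 0.587).

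The 9 genes of the fusion machinery are the SNARE genes Snap25, Vamp1, Vamp2 and Stx1a, the ATPase gene Nsf that takes used SNARE complexes apart, the complexins Cplx1 and Cplx2 and the calcium sensors Syt1 and Syt2. Of these 6 had positive and 3 negative estimates, from -0.22 for Cplx2 to 0.17 for Syt1. Syt1 had 367, 475 and 489 CPM in the lowest, median and highest iKO library, against 363, 413 and 456 CPM in controls. Of the iKO libraries 5 exceeded every control and iKO 1 lay near the lowest control (log2 difference 0.17 ± 0.083, SE, edgeR, BH-adjusted p = 0.537). Cplx2 had 170.3, 250.4 and 288 CPM in iKO libraries, against 257, 276 and 303 CPM in controls, a log2 difference of -0.22 ± 0.12 (SE) that did not pass the test (edgeR, BH-adjusted p = 0.610).

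The 7 vesicle proteins are the synapsins Syn1 and Syn2, which tether vesicles in reserve, synaptophysin (Syp), the SV2 glycoproteins Sv2a, Sv2b and Sv2c, and Rab3a, a small GTPase that brings vesicles to the active zone. Here 6 of 7 estimates were positive, with a median log2 difference of 0.09 and a range of -0.12 to 0.16. Rab3a had the smallest p, at 236, 289 and 313 CPM in the lowest, median and highest iKO library, against 232, 248 and 290 CPM in controls (log2 difference 0.15 ± 0.077, SE, edgeR, BH-adjusted p = 0.557). The ranges overlapped, and 5 iKO libraries lay above the control median. Sv2b was below the control median in all 6 iKO libraries, yet within the control range in 5 of them.

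Slc17a6 encodes VGLUT2, the main glutamate transporter of most sensory neurons, and Slc17a7 encodes VGLUT1, found mainly in large-diameter ones. Slc17a6 had 227, 303 and 335 CPM in iKO libraries, against 287, 317 and 345 CPM in controls, with 1 iKO library above the control median (log2 difference -0.09 ± 0.080, SE). Slc17a7 had 59.0, 122 and 129 CPM in iKO libraries, against 67.0, 93.5 and 143 CPM in controls (log2 difference 0.15 ± 0.23, SE). Neither passed the test (edgeR, BH-adjusted p = 0.771 and 0.871).

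The last 3 genes are the active zone scaffolds Rims1 and Rims2 and the dynamin gene Dnm1, whose product pinches vesicles off during retrieval. Rims2 came closest to a call of all 36. It had 48.0, 64.3 and 71.8 CPM in the lowest, median and highest iKO library, against 68.1, 73.9 and 81.5 CPM in controls. All 6 iKO libraries were below the control median and 1 of them overlapped the control range, with a log2 difference of -0.22 ± 0.071 (SE, edgeR, BH-adjusted p = 0.247). Dnm1 had the highest estimate of the list, 0.21 ± 0.11 (SE), with 385, 494 and 549 CPM in iKO libraries and 342, 406 and 507 CPM in controls. For Rims1 all 6 iKO libraries were also below the control median, at 67.4, 85.8 and 90.7 CPM against 82.4, 92.7 and 97.2 CPM in controls.

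**Figure D2:**
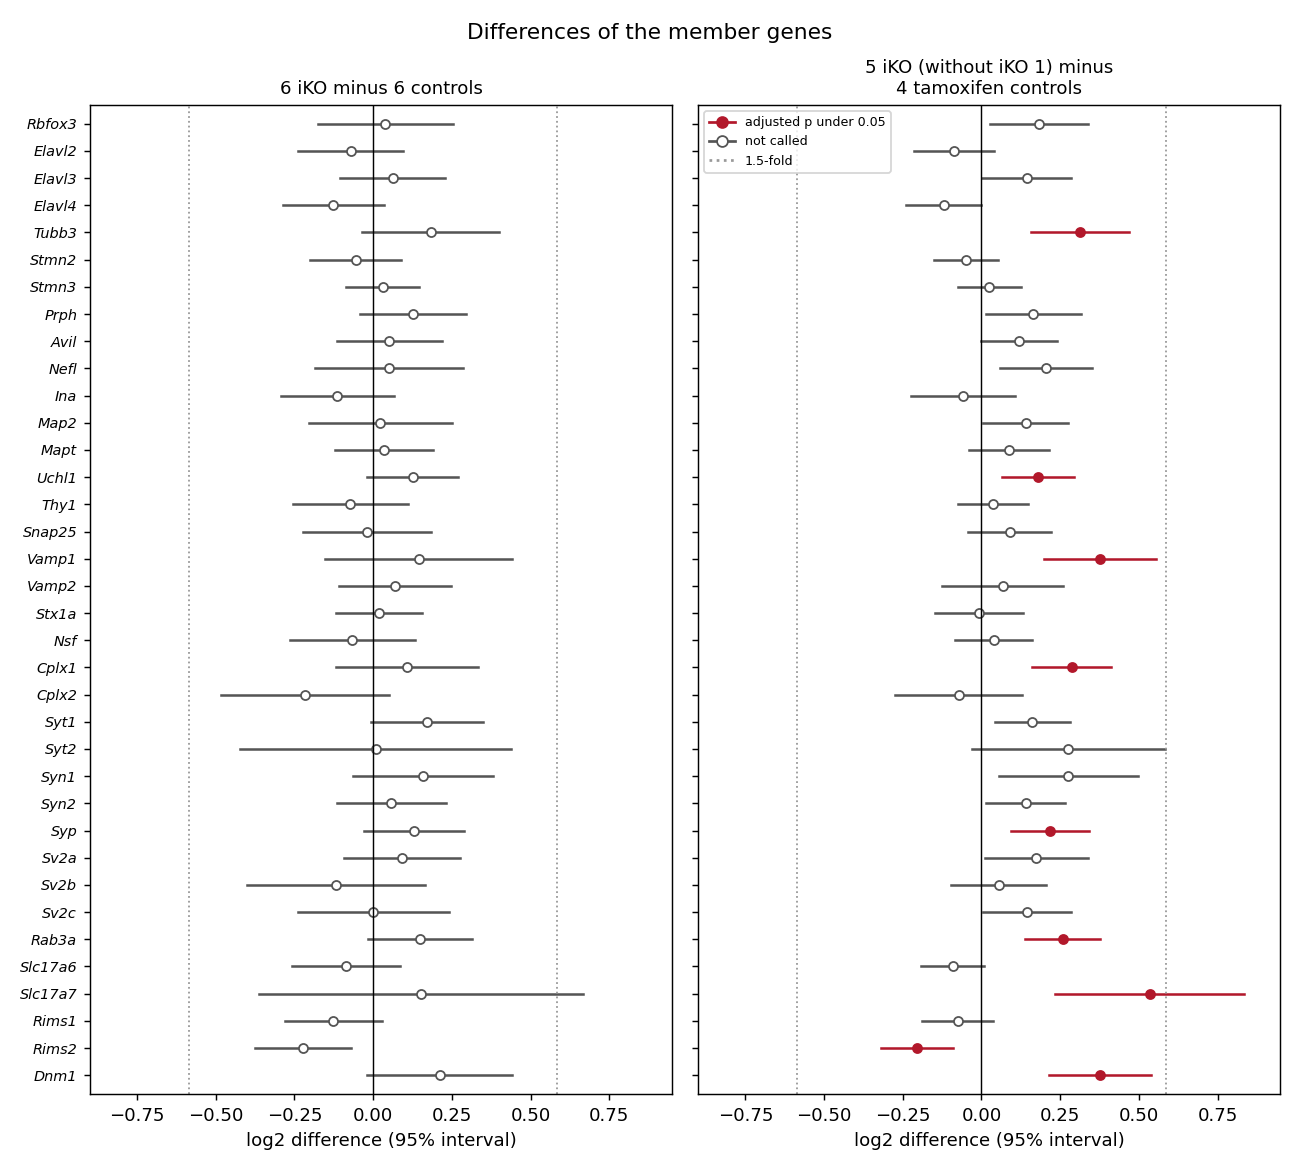
Log2 difference (point) with its 95% interval (line) for each gene, for all 6 iKO minus all 6 control libraries on the left and for iKO 2 to 6 minus the 4 tamoxifen controls on the right, with dotted lines at 1.5-fold. On the left 0 of 36 genes pass the adjusted threshold, and on the right the 9 filled genes do.

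Within the iKO group 1 library lay low for most of the genes. Library iKO 1 was the lowest of the 6 iKO libraries for 33 of the 36 genes and the lowest of all 12 for 25 of them, against 24.4% of all genes tested. Its level was a median of 77.2% of the mean of the other 5 iKO libraries. The share was lowest for Syt2 (138 CPM in iKO 1, against 285 ± 31.7 CPM in iKO 2 to 6, SD, n = 5) and Slc17a7 (59.0 CPM in iKO 1, against 118 ± 15.5 CPM in iKO 2 to 6), at 48.4% and 50%. The exceptions were Stmn3 (99.2%), the membrane SNARE gene Stx1a (100%) and the vesicle SNARE gene Vamp2 (105%). The neuronal score, the mean over the 36 genes of log2 CPM centred on each gene, was -0.34 in iKO 1, -0.01 to 0.13 in iKO 2 to 6 and -0.10 to 0.15 in controls. Markers of endothelium, macrophages and fibroblasts were highest where this score was lowest, with marker scores of 0.93, 1.12 and 1.20 in iKO 1. Scores of satellite glia and myelinating Schwann cells were also highest there, at 0.21 and 0.42. The part of these cell types in the low neuronal values was not tested.

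**Figure D3:**
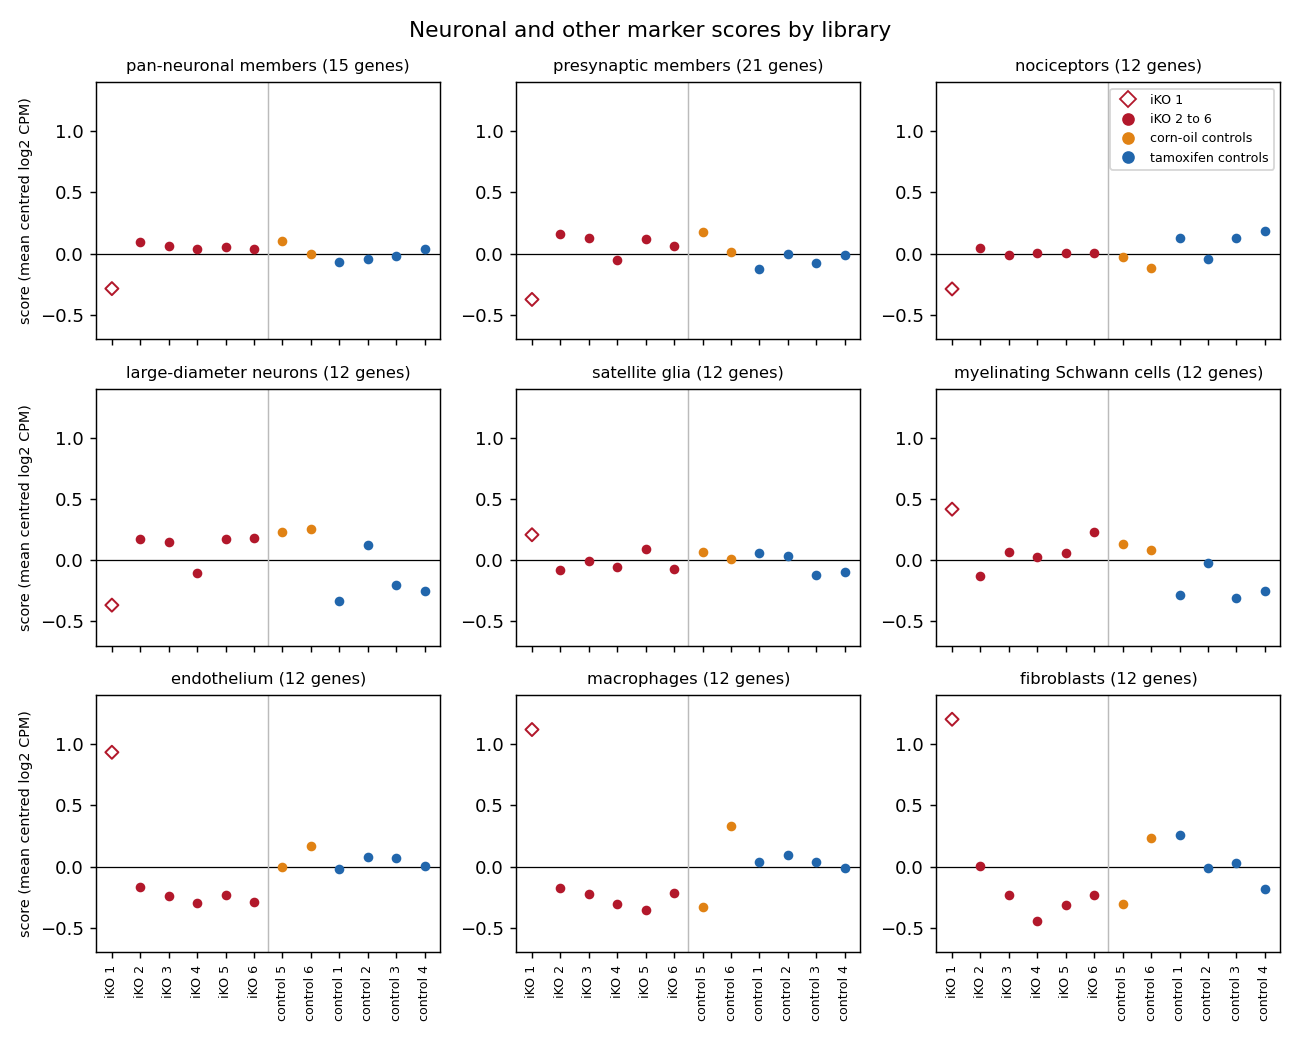
Score of each list (mean over its genes of log2 CPM centred on each gene, vertical axis, the same scale in all panels) in each library (horizontal axis), for the 15 pan-neuronal and 21 presynaptic genes and 7 marker lists. The open diamond, iKO 1, is lowest for both neuronal lists, nociceptors and large-diameter neurons. It is highest for satellite glia, myelinating Schwann cells, endothelium, macrophages and fibroblasts.

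In iKO 2 to 6 the coefficient of variation was under that of the 6 controls for 29 of the 36 genes and over it for 7, with medians of 7.53% in iKO 2 to 6 and 8.56% in controls. This count cannot show that the iKO group varied less. The iKO library lowest for 33 of the 36 genes was left out, while controls of both kinds were all kept. The like count over all genes was not made. Among the genes with the smallest variation, Snap25 had 1517 ± 29.6 CPM in iKO 2 to 6 (SD, n = 5), Nefl 2516 ± 34.3, Uchl1 1628 ± 29.8 and Sv2b 302 ± 4.56. The coefficient of variation was largest for Cplx2, at 16.1% in iKO 2 to 6 and 6.82% in controls. Over all genes iKO 4 was less like the others, with a chi-square per degree of freedom of 14.3 to 20.4 against iKO 2, 3, 5 and 6, beside 3.9 to 8.34 among those 4. For these 5 libraries against all 6 controls, 0 of the 36 genes were called in the edgeR QL test, beside 364 of all genes (2.21%), and 8 had an unadjusted p under 0.05, against 16.2% of all genes. The median log2 difference was 0.09. Syt1 was the 1 gene of the list whose groups no longer overlapped, as for 478 of all genes (2.92%), at 457 to 489 CPM in iKO 2 to 6 and 363 to 456 CPM in controls (log2 difference 0.22 ± 0.062, SE, edgeR, BH-adjusted p = 0.0806).

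The controls were then taken by kind. With all libraries, 0 of the 36 genes differed between iKO and the tamoxifen controls in the edgeR QL test, beside 222 of all genes (1.35%), and 5 did at an unadjusted p under 0.05, against 17.0% of all genes. Without iKO 1, 9 of the 36 were called, 8 higher and 1 lower, and 20 had an unadjusted p under 0.05, against 25.8% of all genes. In the same fit 1459 of all genes were called (8.87%), 5.94% of all genes as higher and 2.92% as lower. The median log2 difference of the 36 was 0.14, against -0.01 over all genes. Library iKO 1 was the lowest iKO library for 33 of the 36, so leaving it out raised most of the iKO means that were then tested. When any other single library was left out instead, 0 of the 36 were called against tamoxifen controls. The 9 calls therefore rest on leaving out iKO 1.

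The genes called higher in iKO 2 to 6 than in tamoxifen controls came from several classes of the list. Tubb3 had 2720.4, 3042, 2396, 2711 and 2492 CPM in iKO 2 to 6, against 2119.7, 2065, 2023 and 2437 CPM in tamoxifen controls 1 to 4, with 1 control above the lowest iKO value. Its log2 difference was 0.31 ± 0.074 (SE, edgeR, BH-adjusted p = 0.0169). Uchl1 had 1633, 1675, 1595, 1616 and 1619.5 CPM in iKO 2 to 6, against 1426, 1400.1, 1402 and 1536 CPM in the tamoxifen controls, without overlap (0.18 ± 0.054, edgeR, BH-adjusted p = 0.0486). These 2 are the pan-neuronal genes of the 9.

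Of the fusion machinery Vamp1 and Cplx1 were called higher. Vamp1 had 592, 608, 507, 600.2 and 617 CPM in iKO 2 to 6, against 384, 536, 448 and 446 CPM in the tamoxifen controls, with control 2 above iKO 4 (log2 difference 0.38 ± 0.083, SE, edgeR, BH-adjusted p = 0.0139). Cplx1 had 802, 819, 650.3, 761 and 748 CPM in iKO 2 to 6, against 602, 681, 586 and 635 CPM in the tamoxifen controls, again with control 2 above iKO 4 (0.29 ± 0.059, edgeR, BH-adjusted p = 0.00846). Among vesicle proteins it was Syp and Rab3a. Syp had 359, 352, 298, 358 and 339 CPM in iKO 2 to 6, against 285.4, 285.4, 298 and 309 CPM in the tamoxifen controls (0.22 ± 0.059, edgeR, BH-adjusted p = 0.0308). Rab3a had 292, 313, 257, 294 and 287 CPM in iKO 2 to 6, against 245, 249, 232 and 247 CPM in the tamoxifen controls (0.26 ± 0.056, edgeR, BH-adjusted p = 0.0109). Rab3a did not overlap between these libraries, while Syp in control 4 lay above iKO 4.

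Of the 9 called genes Slc17a7 showed the largest difference and the widest interval. It had 129, 127, 91.2, 118 and 125 CPM in iKO 2 to 6, against 67.0, 106, 76.4 and 81.1 CPM in the tamoxifen controls (log2 difference 0.53 ± 0.13, SE, edgeR, BH-adjusted p = 0.0385). Control 2 exceeded iKO 4 here too. Dnm1 had 549, 539.7, 409, 506 and 483 CPM in iKO 2 to 6, against 393, 395, 342 and 417 CPM in the tamoxifen controls (0.38 ± 0.076, edgeR, BH-adjusted p = 0.00846), and control 4 lay above iKO 4. The 1 gene called lower was Rims2, with 59.9, 64.9, 71.8, 67.3 and 63.6 CPM in iKO 2 to 6, against 68.1, 71.3, 81.5 and 79.5 CPM in the tamoxifen controls (-0.21 ± 0.054, edgeR, BH-adjusted p = 0.0288). Of these iKO libraries 1 reached into the control range. Library iKO 4 was the lowest of the 5 for each of the 8 genes called higher and the highest for Rims2.

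These calls did not extend to the corn-oil controls. Against them, 0 of 36 genes were called with all libraries in the edgeR QL test, beside 24 of all genes (0.146%), and 1 had an unadjusted p under 0.05, against 5.3% of all genes. Without iKO 1 the 1 called gene was Syt1, with 485, 467, 489, 483 and 457 CPM in iKO 2 to 6 and 392 and 363 CPM in corn-oil controls (log2 difference 0.36 ± 0.075, SE, edgeR, BH-adjusted p = 0.0273), beside 160 of all genes (0.972%). This call rested on control 6 as well. Without iKO 1 and control 6, when the corn-oil group is 1 library assumed to vary like the others, the log2 difference of Syt1 was 0.31 ± 0.098 (SE, edgeR, BH-adjusted p = 0.351), 0 of the 36 were called beside 52 of all genes (0.318%), and 9 of the 36 estimates were positive, against 21 with control 6. Against tamoxifen controls that fit called the same 9 genes and Syn1, beside 1608 of all genes (9.84%). The comparisons share the iKO libraries. For the 9 genes called against tamoxifen controls, the log2 differences of iKO 2 to 6 from corn-oil controls were 0.05 for Tubb3, 0.10 for Uchl1, -0.10 for Vamp1, -0.08 for Cplx1, 0.05 for Syp, 0.05 for Rab3a, -0.26 for Slc17a7, -0.10 for Rims2 and 0.02 for Dnm1. Agent, genotype, sex mix and replicate numbers all separate the 2 kinds of control. Among the replicates numbered 1 to 4 without iKO 1, where 3 iKO and 4 control libraries share the agent, 0 of the 36 were called and 17 had an unadjusted p under 0.05 in the edgeR QL test, against 17.0% of all genes, beside 346 of 16721 genes called (2.07%). Dnm1 had the smallest adjusted p there, 0.0609 by edgeR with Benjamini-Hochberg adjustment. The median log2 difference over the 36 was 0.13 there, against 0.14 for iKO 2 to 6 and all tamoxifen controls, with 26 positive. For the 9 genes the log2 differences were 0.33 for Tubb3, 0.19 for Uchl1, 0.31 for Vamp1, 0.25 for Cplx1, 0.19 for Syp, 0.225 for Rab3a, 0.435 for Slc17a7, 0.33 for Dnm1 and -0.15 for Rims2.

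**Figure D4:**
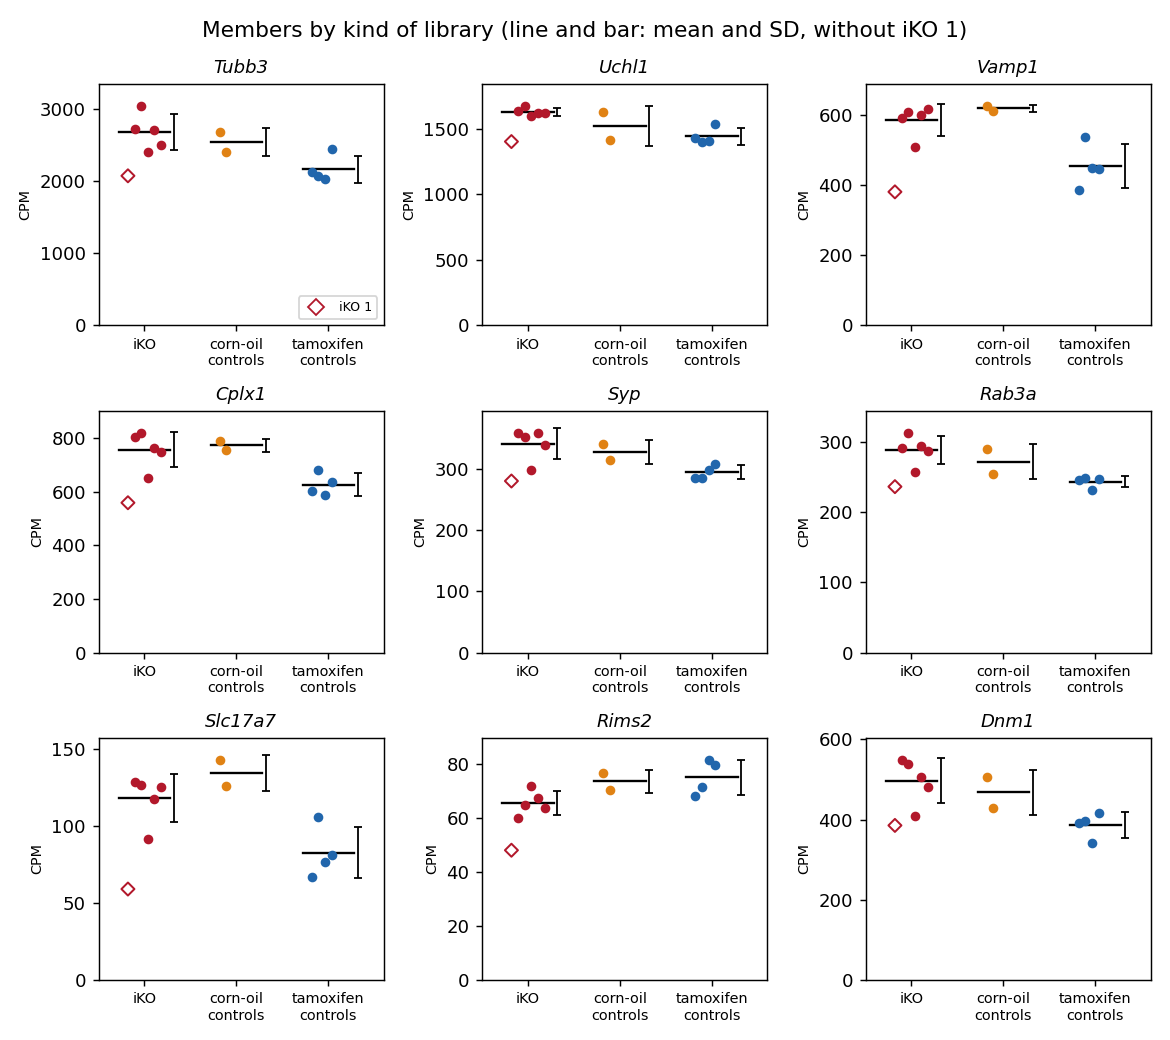
CPM (vertical axis, from 0) of the 9 genes called for iKO 2 to 6 against tamoxifen controls, in iKO, corn-oil control and tamoxifen control libraries. The line and bar give the mean and SD without iKO 1 (open diamond). For Slc17a7 the means are 118, 134 and 82.6 CPM in iKO 2 to 6, corn-oil and tamoxifen control libraries.

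Corn-oil and tamoxifen controls were also set against each other. In the edgeR QL test 0 of the 36 genes differed, as did 0 of all genes (0%), while 3 of the 36 and 11.6% of all genes had an unadjusted p under 0.05. These 3 were Slc17a7 (134 ± 11.8 CPM in corn-oil, n = 2, and 82.6 ± 16.6 CPM in tamoxifen controls, n = 4), Vamp1 (619 ± 10.3 CPM in corn-oil and 453 ± 62.2 CPM in tamoxifen controls) and Cplx1 (772 ± 24.9 CPM in corn-oil and 626 ± 41.9 CPM in tamoxifen controls), each at an edgeR p, BH-adjusted, of 0.423. Estimates were positive for 25 of the 36 and for 51.2% of all genes, with a median of 0.07. This rested on control 5, without which 17 were positive and the median was -0.01, while without control 6 there were 28 and the median was 0.16. In the fit without iKO 1 the count of the 36 at an unadjusted p under 0.05 was 15, against 19.2% of all genes, and 14 of all genes were called (0.0851%). Without both iKO 1 and control 6 it was 16, with 0 of the 36 and 12 of all genes called (0.0734%). Marker lists were read over the same 3 kinds of library. The 12 large-diameter markers summed to 3517 to 4076 CPM in iKO 2 to 6, 3836 to 4290 CPM in corn-oil controls and 2585 to 3594 CPM in tamoxifen controls. The 12 Schwann cell markers summed to 4819 to 5962 CPM in iKO 2 to 6, 5205 to 5374 CPM in corn-oil controls and 4212 to 4827 CPM in tamoxifen controls. The 12 endothelial markers summed to 183 to 219 CPM in iKO 2 to 6, 224 to 257 CPM in corn-oil controls and 226 to 244 CPM in tamoxifen controls, and the 12 macrophage markers to 252 to 285, 276 to 440 and 322 to 356 CPM in those 3 kinds of library. All 12 of each had a lower mean in iKO 2 to 6 than in tamoxifen controls. That leaves out iKO 1, the highest of all libraries for 12 endothelial and 11 macrophage markers. With all libraries the estimates against tamoxifen controls were negative for 8 of 12 endothelial and 6 of 12 macrophage markers. The median log2 differences were then -0.03 and 0.000118. The 12 fibroblast markers summed to 2941 to 3306 CPM in iKO 2 to 6, 3298 to 4262 CPM in corn-oil controls and 3495 to 4309 CPM in tamoxifen controls. The 7 erythroid markers summed to 77.6 to 174.6 CPM in iKO 2 to 6, 298.5 to 327.6 CPM in corn-oil controls and 137.3 to 222.4 CPM in tamoxifen controls. All 7 had a lower mean in iKO 2 to 6 than in tamoxifen controls, with a median log2 difference of -0.79, against -0.36 with all libraries. In iKO 1 the sums were 2332 CPM for large-diameter, 6889 CPM for Schwann cell, 475 CPM for endothelial and 338 CPM for erythroid markers. In the fit of iKO 2 to 6 against tamoxifen controls 3 large-diameter and 3 Schwann cell markers were called higher, and 3 fibroblast, 2 endothelial, 1 macrophage and 1 nociceptor marker lower. None of the satellite glia, erythroid, skeletal muscle or spinal cord markers was called. Over all genes that fit called 5.94% as higher and 2.92% as lower. With iKO 1 kept, 1 Schwann cell marker was called higher, beside 222 of all genes (1.35%). Of the large-diameter, fibroblast, endothelial, macrophage and nociceptor markers 0 were then called, so those calls rest on leaving out iKO 1. The part of these cell types in the values of the 36 genes was not tested.

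Several members are pairs of related genes that do the same step, and their ratio within a library does not depend on depth. Of 14 such ratios, 1 did not overlap between the groups. The log2 ratio of Cplx1 to Cplx2 was 1.71, 1.51, 1.51, 1.78, 1.52 and 1.66 in iKO 1 to 6, against 1.23, 1.35, 1.18, 1.16, 1.38 and 1.37 in controls 1 to 6. The means were 1.62 ± 0.12 in iKO libraries and 1.28 ± 0.10 in controls (SD, n = 6 each), and every iKO library lay above every control of either kind. This pair was picked once its values were known and is given with no test. Over all 630 ratios between 2 of the 36 genes, 18 did not overlap (2.86%), and Cplx2 was in 9 of those 18. Neither complexin was called alone. The log2 ratio of Slc17a7 to Slc17a6 was -1.49 ± 0.34 in iKO libraries and -1.71 ± 0.52 in controls, and it overlapped, with -1.08 and -1.19 in the corn-oil controls against -2.29 to -1.55 in the tamoxifen controls. The ratio of Vamp1 to Vamp2 was 0.45 ± 0.33 in iKO libraries and 0.42 ± 0.37 in controls, and that of Syt2 to Syt1 was -0.86 ± 0.32 in iKO libraries and -0.64 ± 0.45 in controls.

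**Figure D5:**
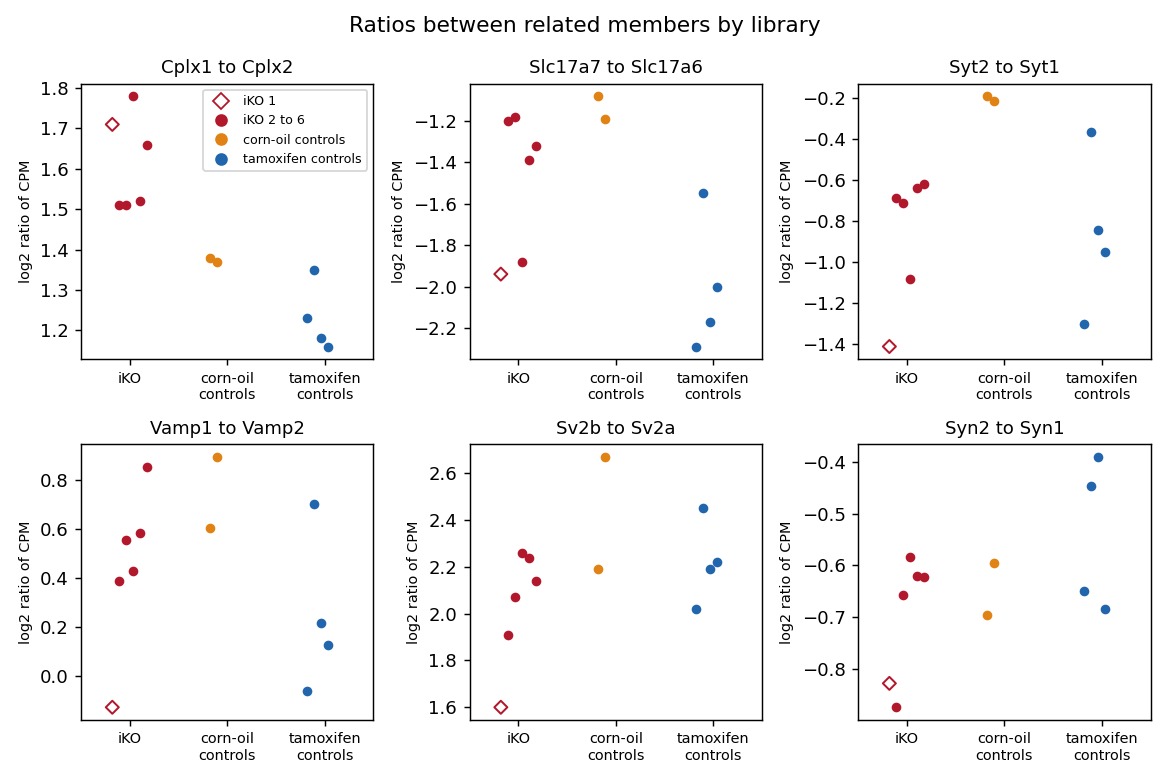
Log2 ratio of CPM between related genes (vertical axes, each with its own range) in iKO, corn-oil control and tamoxifen control libraries, with iKO 1 as an open diamond. For Cplx1 to Cplx2 all 6 iKO libraries (1.51 to 1.78) lie above all 6 controls (1.16 to 1.38), and the other 5 ratios overlap.

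The start-site windows of both complexin genes are shown because their ratio was the one that separated the groups, those of both transporter genes because they differed most in spread, and that of Tubb3 because it was the most abundant gene per kilobase. Each runs from 250 bases before to 50 bases after an annotated start (RefSeq, GRCm38.p6), 5′ to 3′ on the gene's strand. Capitals mark GGACAG and CAGCACC, the conserved parts of the element bound by REST, a repressor of neuronal genes in non-neuronal cells, on either strand. Such windows were found for 29 of the 36 genes.
Cplx1: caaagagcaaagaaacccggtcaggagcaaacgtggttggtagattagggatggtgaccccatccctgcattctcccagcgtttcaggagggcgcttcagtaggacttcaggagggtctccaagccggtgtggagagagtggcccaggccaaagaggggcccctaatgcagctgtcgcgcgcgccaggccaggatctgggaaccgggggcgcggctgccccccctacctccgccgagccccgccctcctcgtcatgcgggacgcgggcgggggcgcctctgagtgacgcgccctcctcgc
Cplx2: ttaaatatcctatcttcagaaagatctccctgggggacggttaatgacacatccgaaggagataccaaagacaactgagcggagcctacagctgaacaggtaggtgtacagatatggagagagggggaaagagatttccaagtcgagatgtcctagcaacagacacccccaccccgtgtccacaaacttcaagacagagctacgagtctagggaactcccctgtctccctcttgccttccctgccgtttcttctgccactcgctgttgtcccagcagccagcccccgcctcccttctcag
Slc17a6: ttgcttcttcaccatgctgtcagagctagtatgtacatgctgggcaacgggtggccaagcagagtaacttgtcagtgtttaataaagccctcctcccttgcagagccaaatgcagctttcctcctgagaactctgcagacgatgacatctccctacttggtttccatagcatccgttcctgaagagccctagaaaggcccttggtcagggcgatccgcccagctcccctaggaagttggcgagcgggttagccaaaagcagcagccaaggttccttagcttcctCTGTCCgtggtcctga
Slc17a7: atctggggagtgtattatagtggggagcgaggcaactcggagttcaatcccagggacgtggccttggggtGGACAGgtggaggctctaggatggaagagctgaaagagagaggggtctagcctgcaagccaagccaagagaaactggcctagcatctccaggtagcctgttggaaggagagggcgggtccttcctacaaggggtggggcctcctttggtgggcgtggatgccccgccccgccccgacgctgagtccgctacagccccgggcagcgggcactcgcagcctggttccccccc
Tubb3: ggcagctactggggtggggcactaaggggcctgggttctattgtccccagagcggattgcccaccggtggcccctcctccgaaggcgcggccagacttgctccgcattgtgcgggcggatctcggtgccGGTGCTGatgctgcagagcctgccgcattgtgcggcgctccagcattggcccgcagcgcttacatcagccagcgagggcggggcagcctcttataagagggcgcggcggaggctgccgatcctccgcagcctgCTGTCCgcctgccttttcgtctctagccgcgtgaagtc
The Cplx1 window lies at chr5:108549978-108550277 on the minus strand, Cplx2 at chr13:54302306-54302605 on the plus strand, Slc17a6 (the first of 2 starts) at chr7:51621580-51621879, Slc17a7 at chr7:45163671-45163970 and Tubb3 at chr8:123411303-123411602, these 3 on the plus strand. GGACAG was in the windows of 10 of the 29 genes, among them both transporters and Tubb3, and in 24.4% of their 45 windows against 22.2% of all 32851 windows. CAGCACC was in those of 3, Tubb3, Syn1 and Sv2c, and in 6.67% of their windows against 7.14% of all. Neither motif contains the other, and neither complexin window held either of them. TATAAA, searched on both strands as a general promoter motif, was in 8.89% of their windows against 13.6% of all.

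Sex was a term in the fit, and its own effect could be read. For male against female libraries 0 of the 36 genes were called in the edgeR QL test, beside 9 of all genes (0.0549%), and 3 had an unadjusted p under 0.05, against 4.11% of all genes. Estimates were positive for 30 of the 36 against 49.6% of all genes, with a median log2 difference of 0.07. Without iKO 1, which is female, they were positive for 22 of 36 with a median of 0.02. The 3 genes were Map2 (283 ± 22.0 CPM in 7 male and 236 ± 43.5 CPM in 5 female libraries), Nefl (2519.8 ± 186 CPM in male and 2146 ± 410 CPM in female libraries) and Rims2 (72.9 ± 6.53 CPM in male and 62.4 ± 9.09 CPM in female libraries), each at an edgeR p, BH-adjusted, of 0.904. The interaction of sex with group gave 0 calls among the 36 and 0 among all genes (0%), and 0 of the 36 had an unadjusted p under 0.05, against 3.59% of all genes, in the edgeR QL test. Its estimates were negative for 22 of the 36, with a median of -0.06. Without iKO 1 it again gave 0 calls among the 36 and among all genes (0%), with 4 of the 36 at an unadjusted p under 0.05, against 4.38% of all genes, 28 negative estimates and a median of -0.16. The median was 0.03 without iKO 3.

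A further 39 neuronal and 69 presynaptic genes outside the 36 were read in the same fits, after Vamp7, listed as the 70th presynaptic gene, matched no gene row. Of these, 39 neuronal and 65 presynaptic genes passed the filter. For iKO against control in the edgeR QL test, 0 of either were called, beside the 0.946% of all genes given above. At an unadjusted p under 0.05 there were 3 neuronal (7.69%) and 7 presynaptic genes (10.8%), near the 9.52% of all genes. Median log2 differences were 0.04 for the neuronal and 0.00047 for the presynaptic genes. The neuronal gene with the smallest p was Scg3, a granin of dense-core vesicles (log2 difference -0.29, edgeR, BH-adjusted p = 0.144), and the presynaptic one was Sncb, β-synuclein (0.23, edgeR, BH-adjusted p = 0.326). Without iKO 1, against tamoxifen controls, 9 of the 39 neuronal genes were called higher and 2 lower, and 12 of the 65 presynaptic genes higher and 1 lower, beside the 8.87% of all genes given above. With all libraries 0 neuronal genes were called higher and 1 lower, and 1 presynaptic gene higher and 1 lower, beside 1.35% of all genes. Library iKO 1 was the lowest of all 12 for 25 of the 39 neuronal and 38 of the 69 presynaptic genes. Most of the higher calls therefore rest on leaving out iKO 1. Scg3 had 809 ± 37.0 CPM in iKO 2 to 6 and 1036 ± 69.5 CPM in tamoxifen controls, and it was also called there with all libraries (-0.37, edgeR, BH-adjusted p = 0.0138). Sncb had 57.8 ± 6.55 CPM in iKO 2 to 6 and 45.8 ± 1.54 CPM in tamoxifen controls, and it too was called with all libraries (0.32, edgeR, BH-adjusted p = 0.0448). Rab27b, a small GTPase of secretory granule docking, had 141 ± 14.8 CPM in iKO 2 to 6 and 180.1 ± 17.2 CPM in tamoxifen controls (-0.39 with all libraries, edgeR, BH-adjusted p = 0.0236). It is the other presynaptic gene called with all libraries and is named here after its values were seen. The 2 corn-oil controls averaged 860 CPM for Scg3, 53.6 CPM for Sncb and 134 CPM for Rab27b. For Scg3 and Sncb these means lay between those of iKO 2 to 6 and the tamoxifen controls. For Rab27b the corn-oil mean lay below that of iKO 2 to 6, so the direction turned.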

How the data were processed

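The authors deposited 1 table of raw read counts per library. Per the submitters' processing notes, the tools were featureCounts 2.0.1, STAR 2.7.8a and bcl2fastq 2.20.0.422, and the build GRCm39. Libraries were non-stranded TruSeq poly(A) preparations of tissue kept in TRIzol, per the labels' protocols. The sources used here give neither the annotation release nor the counting options. Symbols were looked up by gene identifier in a GRCm38 annotation, which named 52135 of 55416 gene rows (94.1%, holding 99.69% of counts); levels per kilobase use its exon lengths. Of the 36 genes, 11 shared exon bases with another gene, most for Nefl, then Uchl1 (18.1%), Syp (16.8%) and Ina (14.1%).

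Counts were scaled by TMM, filtered with filterByExpr by group (16384 genes) and tested with edgeR 4.0.16 (R 4.3.3), by the quasi-likelihood test with robust estimates and sex beside group, with 2-sided p-values adjusted by Benjamini-Hochberg over all genes and a threshold of 0.05. Kinds of control were compared in a fit with 3 groups, and the interaction in its own fit; the 3 fits had 9, 8 and 8 residual degrees of freedom. SEs were derived from the log2 difference and its F statistic, and the biological coefficient of variation was 12.8%. CPM divides counts by the TMM-scaled library size, and scores use log2 CPM with a prior count of 2. DESeq2 1.42.0 and limma-voom (limma 3.58.1) were alternatives. The procedure was tested on simulated data. No library was a near copy of another (chi-square per degree of freedom of 3.9 or more). Whether a library is 1 animal is not stated, so p-values speak only of the spread among these libraries.

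The genes, lists, tests and alternatives were chosen with earlier results of these data known. Genes with full values were those called in a comparison, those with the smallest p of their class for iKO against control and the most abundant; of other lists, those called or otherwise the smallest p.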

Additional observations from a re-analysis of the deposited data

Results flagged for a closer look

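In 9 of the 78 groups of 6 values checked (each of the 36 genes and 3 scores in each group), 1 library lay far from the nearest other by Dixon's criterion, which flags about 1 in 20 groups by chance. It was iKO 1 in all 9, as the lowest iKO library: Stmn2 at 1640 CPM, Nefl at 1636, Uchl1 at 1401, Snap25 at 1043, Syt1 at 367, Sv2b at 169.7 and Rims1 at 67.4 CPM, the score of all 36 genes at -0.34 and that of the 15 pan-neuronal genes at -0.29. The other 5 iKO libraries had 1925 to 2087 CPM for Stmn2, 2472 to 2561 for Nefl, 1595 to 1675 for Uchl1, 1482 to 1559 for Snap25, 457 to 489 for Syt1, 298 to 308 for Sv2b and 84.3 to 90.7 CPM for Rims1. In controls 0 groups met the criterion. The 78 groups share the same 12 libraries and the scores average the same genes. The rate of 1 in 20 is therefore no yardstick for the count of 9. The like count over all genes was not made, and iKO 1 was the lowest of the 12 libraries for 24.4% of all genes tested.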

How the results depend on the processing

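For iKO against control the number of the 36 genes called was 0 under all 23 alternatives, while the count over all genes moved from 155 to 253 without a filter on low counts, 235 without the corn-oil controls, 35 with replicates 1 to 4 alone, 82 with replicates 5 and 6 alone, 276 by DESeq2 and 92 to 364 when 1 library at a time was left out, with 364 without iKO 1, 93 without iKO 5, 97 without iKO 6, 92 without control 1 and 103 without control 2. Leaving out 1 library moved the calls against tamoxifen controls between 98 and 1459 genes (222 with all; 143, 469, 138 and 140 without iKO 3, 4, 5 and 6, and 98 and 105 without controls 1 and 3) and 0 and 9 of the 36, those against corn-oil controls between 3 and 160 genes (24 with all; 15, 10, 11 and 9 without iKO 3, 4, 5 and 6, and 14, 3 and 5 without controls 3, 5 and 6) and 0 and 1 of the 36, and those between the kinds of control between 0 and 14 genes; the highest of each was without iKO 1, and the last gave 3 without control 5. Male against female libraries gave 8 to 11 genes and the interaction 0 to 1. Replicates 1 to 4 without iKO 1, an alternative chosen after seeing the data, gave 346 genes and 0 of the 36. Leaving out both iKO 1 and control 6, also chosen after seeing the data, gave 1608 genes and 10 of the 36 against tamoxifen controls, 52 genes against corn-oil controls and 12 between the kinds of control. Prdm12 was not called with replicates 5 and 6 alone (log2 difference -2.13, adjusted p = 0.622 by edgeR with Benjamini-Hochberg adjustment, 2 libraries a group).

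Whether replicate numbers pair the libraries was not settled. Correlations of same-numbered libraries ran from -0.15 to 0.22, and 3 of 6 pairs correlated best with their own number. The main fits held no replicate term. With the replicate block the fit called 79 genes and 0 of the 36, with 3 at an unadjusted p under 0.05. It turned the median log2 difference of the 36 to -0.00386, with 17 positive and 19 negative, and gave -0.11 for Syt2 and -0.00364 for Slc17a7.

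Directions of small differences turned in some settings, none of them called. Snap25 was 0.02 without the corn-oil controls, 0.00235 in replicates 1 to 4 and -0.0569 to 0.0411 when 1 library was left out. Replicates 5 and 6 alone gave -0.0213 for Vamp1, -0.031 for Cplx1, 0.0837 for Slc17a6, -0.14 for Slc17a7 and -0.11 for Syt2. Syt2 was also -0.00554 with upper-quartile scaling, -0.0346 without the sex term, -0.0307 with replicates 1 to 4 against 5 and 6 as a term, -0.00661 by limma-voom and -0.0845 to 0.12 when 1 library was left out. The causes were not tested. The log2 ratio of Cplx1 to Cplx2 differed by 0.30 to 0.36 when 1 library was left out. Over all genes every pair of libraries differed by more than counting error, and the corn-oil group holds 2 libraries.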
